A study of Schizosaccharomyces pombe with 24 samples.

Results

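Small RNA of fission yeast (Schizosaccharomyces pombe) was compared between cells labelled ago1D, for a deletion of Argonaute, and cells labelled dcr1D, for a deletion of Dicer. The comparison took all 6 libraries titled ago1D and all 6 titled dcr1D, 12 of the 24 libraries of the series, and matched them by labelled time. It was repeated on the 4, 10 and 24 h libraries alone, 3 of each strain. The question was which small RNA needs one of these RNA interference factors but not the other. By their labels, the ago1D cells carried the NatMX6 drug marker in place of ago1 and the dcr1D cells in place of dcr1. The wild type, wt, carried neither, and its 6 libraries are given beside both. Every strain had the 975 h+ background, which is the plus (P) mating type, and was sampled 0, 1, 2, 4, 10 and 24 h after washing into minimal medium with no nitrogen. Each strain and time had 1 library of gel-purified small RNA, counted per gene. The libraries of another deletion strain, clr4D, entered the fits, through the spread, the time term, the filter and the scaling, and the mean profiles by time, but no comparison. Neither separate cultures nor more than 1 clone per strain is stated in the labels, so each p value reflects only these libraries. In the fits, the spread is what added terms for strain and time leave over. It can hold strain-specific change over time, libraries unlike their labelled time and technical scatter, which cannot be told apart.

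Dicer cuts double-stranded RNA into short interfering RNAs (siRNAs), and Argonaute binds them. In fission yeast the Argonaute Ago1, within the RITS complex, carries siRNAs from the repeats around centromeres back to those repeats, where the methyltransferase Clr4 marks histone H3. Cells of this yeast stop dividing without nitrogen. Where P and M (minus) cells meet, they mate, enter meiosis and form spores, and where no partner is present they become quiescent. The counts held no read lengths, so siRNAs and short fragments of messenger RNAs could not be told apart at any gene. How counting treated strand is not stated, so reads of a gene and of a feature opposite it cannot be told apart either.

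Gene counts ranged from 117245 to 674555 per ago1D library, from 187143 to 2121235 per library labelled dcr1D and from 188998 to 640322 per wt library. Reads set aside for low mapping quality made up 81.0% to 97.4% of an ago1D library and 67.5% to 96.0% of a library labelled dcr1D, so repeated sequence is poorly covered. Each library's profile was also set against the mean profile of the other strains at each labelled time. Of the ago1D libraries, 3 of 6 were closest to their labelled time, against 6 of 6 labelled dcr1D and 6 of 6 of wt. The ago1D library labelled 0 h was closest to 1 h (Pearson r across genes 0.55, against -0.15 with its own time), that labelled 1 h to 2 h (0.38 against 0.30), and that labelled 2 h to 0 h (0.82 against -0.37). The labels were kept, and the all-times counts of calls, over all genes and by gene list where they differ, are also given without these 3 libraries. A gene was called at p below 0.05 in the quasi-likelihood test of edgeR, after Benjamini-Hochberg adjustment over every gene tested. Levels are normalised CPM, counts scaled to a common library size, and fold changes are log2 values of ago1D over the libraries labelled dcr1D, so a positive one means higher in ago1D.

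The targeted genes were read first. Small RNA from ago1 had 7.75, 17.3, 5.56, 7.30, 10.9 and 0 CPM in ago1D from 0 to 24 h, against 26.8, 51.1, 90.9, 49.8, 81.9 and 73.8 CPM in the libraries labelled dcr1D and 27.2 to 93.6 CPM in wt. Every ago1D library lay below every other library of these 3 strains, and the fold change over the libraries labelled dcr1D was -2.81 (SE 0.28, edgeR adjusted p = 1.36e-06). Small RNA from dcr1 averaged 73.8 ± 12.2 CPM in ago1D, 88.6 ± 20.3 CPM in the libraries labelled dcr1D and 84.7 ± 16.7 CPM in wt (SD, n = 6 each). The libraries labelled dcr1D overlapped the others and did not pass a test against either (adjusted p = 0.746 for ago1D over dcr1D and 0.951 for dcr1D over wt). The extent of the deletion is not stated, so dcr1 counts go against the label without settling it, and the libraries are called "labelled dcr1D" throughout.

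Small RNA from the pericentromeric repeats was nearly absent from both deletions. The 3 annotated non-coding RNAs of these repeats with any count summed to 0, 1, 0, 1, 1 and 2 counts per ago1D library from 0 to 24 h, to 1, 4, 0, 0, 2 and 2 counts per library labelled dcr1D, and to 2716, 173, 253, 283, 228 and 259 counts per wt library. The deletions overlapped, and each of their libraries lay far below the lowest of wt. SPNCRNA.232 had 1 count over the 6 ago1D libraries, 6 over those labelled dcr1D and 2652 over wt. The ratio of labelled dcr1D to ago1D, 4.59, had a 95% exact interval of 0.557 to 211 that covers counting error only. SPNCRNA.231 had 4 counts in ago1D, 2 in the libraries labelled dcr1D and 137 in wt (ratio 0.382, interval 0.0346 to 2.67), and SPNCRNA.359 had 0, 1 and 1123. None of the 3 was called between the deletions (adjusted p from 0.656 to 0.779), while all 3 were called in each deletion against wt. With so few counts in the deletions, these RNAs passed the low-count filter through libraries of other strains. The calls against wt, where they are high, are therefore not independent of that filter. The other 2 members of the list, nam5 and SPNCRNA.362, had no count in any library of ago1D, labelled dcr1D or wt. The subtelomeric helicase gene tlh2, chosen after its values were seen, had 0 counts in ago1D, 1 in the libraries labelled dcr1D and 26 in wt. A difference between the deletions in this RNA was not detectable at this depth.

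Over all 6 matched times, 39 of 4220 tested genes (0.924%) were called, 19 of them higher in ago1D (0.45%) and 20 lower (0.474%). Over 4, 10 and 24 h alone, 138 of 4641 genes (2.97%) were called, 57 higher (1.23%) and 81 lower (1.75%). The comparisons shared 32 genes, 82.1% of the calls over all times and 23.2% of the late ones. Scaling by total counts moved the median of all genes to 0.24 over all times, against -0.01, and gave 41 higher and 13 lower calls, and 53 higher and 49 lower at the late times. The all-times count depended on single libraries. It was 99 without the ago1D library labelled 0 h, 162 without 2 h and 158 without 0, 1 and 2 h. The count of 158 was of 4735 genes tested. Without the ago1D library of 1, 4, 10 or 24 h it was 17, 10, 8 and 19 in turn. Without the library labelled dcr1D of 1, 2, 4, 10 or 24 h it was 13, 16, 9, 11 and 11 in turn, and 26 without that of 0 h. Of the 39 genes, 7 stayed called whichever of the 12 libraries was left out: ago1, mfm1, mfm2, SPBC530.02 and mei2, all lower in ago1D, and dip5 and SPCC737.04, both higher. The other 32 lost their call without at least 1 library. The median over the 39 genes was 3 of 12 such fits that kept the call. At the late times the count was 30 without the ago1D 10 h library and 45 without that labelled dcr1D at 10 h.

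**Figure D1:**
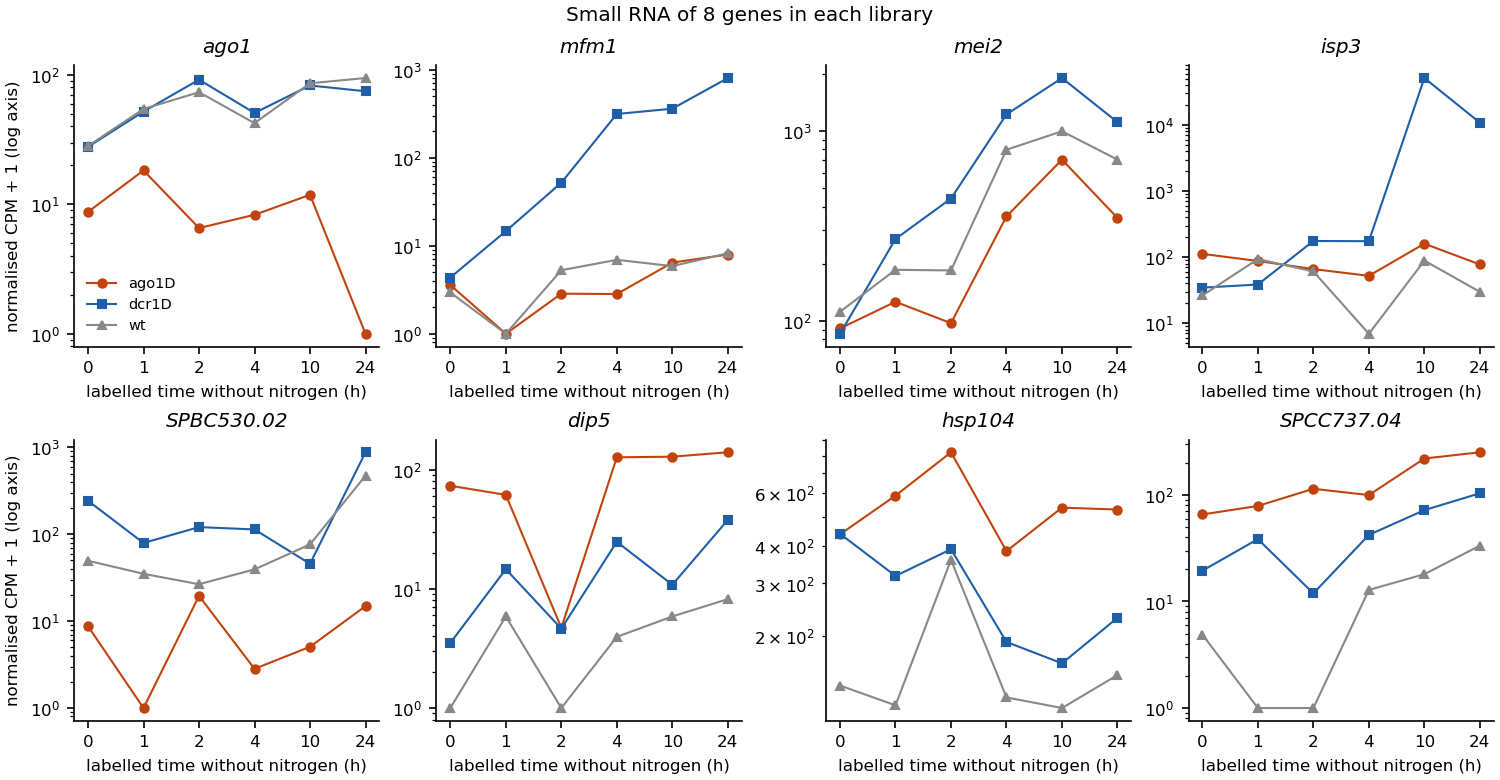
Small RNA of 8 genes in each library, as normalised CPM plus 1 on a log axis, against labelled time without nitrogen in hours. Circles are ago1D, squares the libraries labelled dcr1D and triangles wt, with 1 library per point. mfm1, mei2 and isp3 are highest in the libraries labelled dcr1D at 4, 10 and 24 h, SPBC530.02 is lowest in ago1D at every time, and dip5, hsp104 and SPCC737.04 are highest in ago1D at 4, 10 and 24 h.

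The 3 largest fold changes over all times, all lower in ago1D, were of M-cell genes, although all strains are labelled as P cells. Small RNA from mfm1, a gene for the precursor of M-factor, the pheromone that M cells secrete, had 2.58, 0, 1.85, 1.83, 5.43 and 6.95 CPM in ago1D, against 3.35, 13.6, 50.9, 312, 358 and 799 CPM in the libraries labelled dcr1D. The wt libraries had 0 to 7.20 CPM. The libraries labelled dcr1D stood apart from 1 h on, and the fold change was -6.11 (SE 0.58, edgeR adjusted p = 6.98e-07). At 4, 10 and 24 h the pooled mfm1 counts were 6 in ago1D and 667 in the libraries labelled dcr1D, a ratio of 97.9 (95% exact interval 44.8 to 268).

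The other M-factor genes, mfm2 and mfm3, were also lower in ago1D. mfm2 had 5 counts over the 6 ago1D libraries and 268 over those labelled dcr1D, 41.0 times more per effective library size (interval 17.3 to 127), and no library labelled dcr1D overlapped ago1D. mfm3 had 0 to 10.3 CPM in ago1D, against 2.51, 6.81, 18.2, 388, 368 and 1217 CPM in the libraries labelled dcr1D, and the strains overlapped at 0 and 1 h (fold change -4.77, SE 1.04, edgeR adjusted p = 0.0377). It lies wholly opposite the non-coding RNA SPNCRNA.1381, while mfm1, mfm2 and mam2 have no counted feature opposite. Small RNA from mam2, the receptor for the pheromone of P cells, averaged 8.27 ± 5.55 CPM in ago1D and 81.7 ± 77.7 CPM in the libraries labelled dcr1D (SD, n = 6 each; fold change -3.34, SE 0.54, adjusted p = 0.00170). mam1, which exports M-factor, and sxa2, a carboxypeptidase that breaks down the pheromone of P cells, were called at the late times (-2.59 and -2.07, adjusted p = 0.000242 and 0.0136) but not over all times (-1.57 and -1.10, adjusted p = 0.0706 and 0.395).

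All 6 M-cell genes tested were therefore called lower in ago1D at the late times, with a median of -4.92 against -0.03 over all genes tested. Over all times 4 of 6 were, with a median of -4.05 against -0.01. Of all genes tested, 1.75% and 0.474% were called lower in these comparisons. mfm1, mfm2, mfm3 and mam2 had 8, 5, 17 and 22 counts over the 6 ago1D libraries and 8, 5, 6 and 6 over wt. They could not have passed the low-count filter on those libraries alone. The number tested and the medians are therefore not independent of where these genes are high. Without the clr4D and labelled dcr1D libraries of 10 h, 6 of 6 M-cell genes were called at the late times and 3 of 5 over all times, with a median of -2.89. Without the ago1D libraries labelled 0, 1 and 2 h, 6 of 6 were called over all times. Summed over the M-cell genes, small RNA stood at 55.6 to 107 CPM in ago1D, at 124, 157, 247, 1425, 1368 and 2389.8 CPM from 0 to 24 h in the libraries labelled dcr1D, and at 64.2 to 115 CPM in wt. The 4 remaining members, the Mc and Mi genes of the mat1 and mat3 cassettes, define the M mating type and had no count in any of these libraries. They lie in repeated cassettes, where reads of equal placement are set aside, so their absence cannot be read. The part of M-cell RNA in the other differences was not tested.

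Genes of P cells, which match the labelled mating type, had fold changes of the same sign as those of M cells. Summed over the 5 members, P-cell small RNA was at 241 to 449 CPM in ago1D, at 331 to 357 CPM at 0, 1 and 2 h and 803 to 1220.5 CPM at 4, 10 and 24 h in the libraries labelled dcr1D, and at 222 to 418 CPM in wt. map2, which encodes the pheromone of P cells, was called over all times (-2.40, SE 0.54, adjusted p = 0.0427) and at the late times (-2.78). The agglutination gene map4 and map3, the receptor for M-factor, were called at the late times (-3.23 and -2.19, adjusted p = 0.000195 and 0.00795). sxa1, a protease, was not (-0.41 over all times). Over all times 1 of 4 tested members was called, and at the late times 3 of 5, where 0.474% and 1.75% of all genes tested were called lower. Without the clr4D and labelled dcr1D libraries of 10 h, 0 of 4 were called over all times by edgeR and 3 of 4 at the late times. Without the ago1D libraries labelled 0, 1 and 2 h, 3 of 5 were called over all times, with a median of -2.19.

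The cascade that carries the pheromone signal to meiosis showed the same sign at most of its members. Small RNA from mei2, which encodes the RNA-binding protein that starts meiosis, had 90.4, 125, 96.4, 354, 705 and 347 CPM in ago1D, against 84.6, 269, 439.9, 1221, 1897 and 1111 CPM in the libraries labelled dcr1D and 111, 185, 184, 795, 995 and 706 CPM in wt. It was lower in ago1D at 5 of 6 times, with no overlap at 4 h and later (-1.38, SE 0.24, edgeR adjusted p = 0.00398). The other calls over all times were rgs1, a regulator that damps the G protein (-2.24, adjusted p = 0.0199), ste6, an activator of Ras (-1.95, 0.0199), the kinases spk1 (-1.73, 0.0247) and byr1 (-0.92, 0.0452), and ste11, the transcription factor at the head of mating genes (-1.03, 0.0452). byr1 and ste11 were chosen after their values were seen. ste6 lies wholly opposite the non-coding RNA SPNCRNA.1227. Features of the other strand also lie over 77.3% of spk1 and 32.5% of rgs1, and over none of mei2.

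That made 6 of 14 tested genes of the pheromone and meiotic entry list lower over all times, with a median of -0.79, and 7 of 17 at the late times, with a median of -1.40, and none higher at either. The shares of all genes tested that were called lower were 0.474% and 1.75%. Scaling by total counts left 2 and 5 of the list's genes. Without the clr4D and labelled dcr1D libraries of 10 h, 5 of 14 were called at the late times and 2 of 13 over all times, and without the ago1D libraries labelled 0, 1 and 2 h, 7 of 17 over all times. Close to the list, mam4, a methyltransferase that matures M-factor, had 5.16 to 14.9 CPM in ago1D and 10.9 to 78.0 CPM in the libraries labelled dcr1D (-1.82, SE 0.35, adjusted p = 0.0154). shk2, a kinase of the PAK family, had a fold change of -2.57 (SE 0.59, adjusted p = 0.0429), and 98.9% of its length lies opposite a non-coding RNA. The adhesion gene mam3 and the formin gene fus1, which acts in cell fusion, were called at the late times (-2.76 and -1.47) and were chosen after their values were seen.

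In summed level, spore genes differed at 10 h and, mostly through isp3, at 24 h, and their calls rested largely on 1 library. Small RNA from isp3, a gene of the outer spore layer chosen after its values were seen, was at 51.1 to 159 CPM in ago1D, at 33.5, 37.5, 175, 173, 51329 and 10838 CPM in the libraries labelled dcr1D and at 5.91 to 92.5 CPM in wt. The late fold change was -5.86 (SE 0.99, edgeR adjusted p = 0.00188), the groups did not overlap at those times, and the call held without each of the 6 late libraries. Over a list of spore wall, septin and ascus genes made after values had been seen, summed levels were 872 to 1407 CPM in ago1D, 75667 CPM at 10 h and 12691 CPM at 24 h in the libraries labelled dcr1D, and 846 to 1139.6 CPM in wt. isp3 alone gave 51329 CPM of the sum at 10 h and 10838 CPM of that at 24 h. At 0 to 4 h the libraries labelled dcr1D had 874 to 1302 CPM, within or near the range of the other strains.

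At the late times 6 of 19 tested spore genes were lower in ago1D, with a median of -1.95, where 1.75% of all genes tested were called lower. Over all times none of 15 was called, but 7 of 19 were, with a median of -1.67, without the ago1D libraries labelled 0, 1 and 2 h. spo6, bgs2 and spn7 were chosen after their values were seen. The 6 were isp3, agn2 (a glucanase that opens the ascus; -4.90), meu10 (needed for the spore wall; -5.36), spo6 (a kinase subunit; -4.38), bgs2 (a spore wall glucan synthase; -1.85) and the meiotic septin gene spn7 (-3.45). Without the clr4D and labelled dcr1D libraries of 10 h, 2 of 17 were called. Of the meiotic genes that growing cells silence, which share spo6 and 2 other members with the spore list, 4 of 9 were called at the late times, among them mug8, spo5 and mcp3, and none of 8 without the 10 h libraries. Over all times 1 of 8 was called, mug8 (-2.04, adjusted p = 0.0396), where 0.474% of all genes tested were called lower. Without the ago1D libraries labelled 0, 1 and 2 h, 5 of 9 were called over all times. Fewer members of both lists were tested at the late times without the 10 h libraries. The numbers tested, the shares called and the medians are therefore not independent of where these genes are high.

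The 10 h library labelled dcr1D held most of the late counts of many such genes. Of the 81 genes lower in ago1D at the late times, 43 had over 80% of their late counts of the labelled dcr1D strain in that library, 35 were called without it, and 28 were called without it and the clr4D 10 h library. Of the 57 genes higher in ago1D, 9 were called without the library labelled dcr1D at 10 h and 10 without the ago1D 10 h library, and 19 of the 81 lower without the ago1D 10 h library. The starkest were named by the smallest adjusted p. meu25, known from meiosis, had 3 late counts in ago1D and 1098 in the libraries labelled dcr1D, 1090 of them at 10 h. The non-coding RNA meu19 had 4 and 944, with 926 at 10 h. otg2, a galactosyltransferase gene, had 1 and 469, with 462 at 10 h, and the non-coding RNA meu3 had 6 and 667, with 659 at 10 h. With so few late counts in ago1D, meu25, meu19, otg2 and meu3 passed the low-count filter through libraries of other strains. Their calls are therefore not independent of that filter. meu6 had 10 and 2831, with 2757 at 10 h and 73 at 24 h, and its annotated length lies wholly opposite clr4, whose own counts were 39 in ago1D and 50 in the library labelled dcr1D at 10 h. ght6, a sugar transporter gene wholly opposite a non-coding RNA and chosen after its values were seen, was called over all times (-3.67, SE 0.87, adjusted p = 0.0452) with 23 counts in ago1D and 930 in the libraries labelled dcr1D, 913 of them at 10 h.

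**Figure D2:**
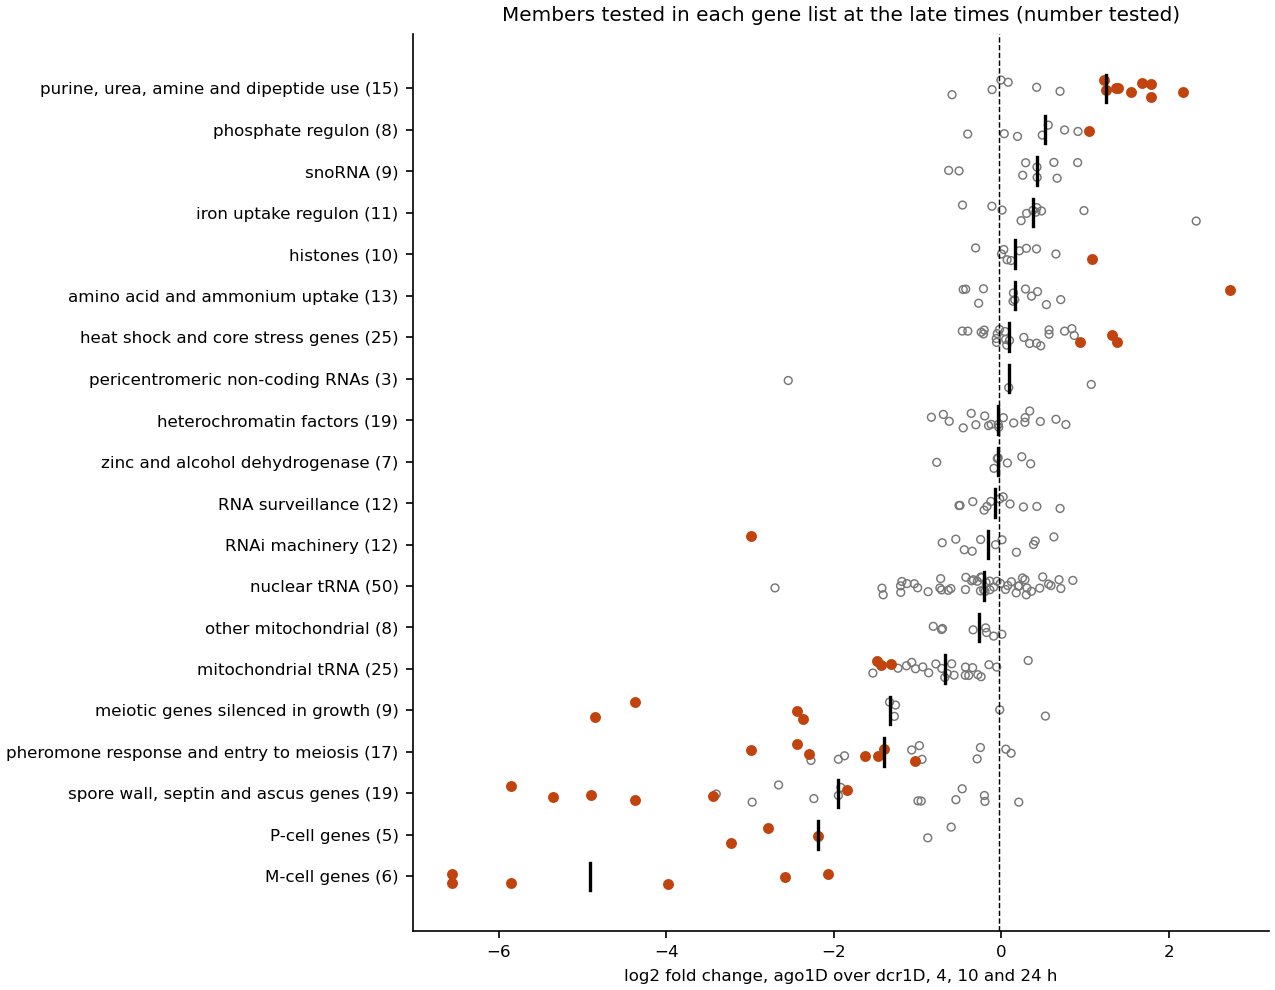
Log2 fold changes of ago1D over the libraries labelled dcr1D at 4, 10 and 24 h (3 libraries each), 1 point per gene tested, by gene list with the number tested in parentheses. Filled points had an edgeR adjusted p below 0.05, the bar is the list's median and the dashed line the median of all 4641 genes tested (-0.03). All 6 M-cell genes are filled on the low side and 9 of 15 purine, urea, amine and dipeptide genes on the high side.

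SPBC530.02, annotated as a transporter, was also lower in ago1D. Its small RNA had 7.75, 0, 18.5, 1.83, 4.07 and 13.9 CPM in ago1D, against 242, 78.4, 120.0, 113, 44.8 and 877 CPM in the libraries labelled dcr1D and 48.6, 34.1, 25.6, 38.4, 75.4 and 472 CPM in wt. Every ago1D library lay below every library of both other strains, and the fold change was -4.30 (SE 0.48, edgeR adjusted p = 7.69e-06). Against wt it was -3.22 in ago1D (adjusted p = 0.000335) and 1.08 in the libraries labelled dcr1D (adjusted p = 0.124), both with wt as the shared reference. mfs2, another transporter of the major facilitator family, chosen after its values were seen, had 12.2 to 74.2 CPM in ago1D and 27.3 to 644 CPM in the libraries labelled dcr1D. It was called at the late times (-2.32, adjusted p = 0.00447) but not over all times (-1.50, adjusted p = 0.141). Also called on the low side was nuc2, a subunit of the anaphase-promoting complex chosen after its values were seen (-1.30, edgeR adjusted p = 0.0452).

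Mitochondrial tRNA genes had negative fold changes. All 25 had negative fold changes over all times, with a median of -0.60 (-0.37 with scaling by total counts), and 1 was called, the tyrosine tRNA gene SPMITTRNATYR.01, where 0.474% of all genes tested were called lower. It had 1717, 1045, 2173, 716, 256 and 451 CPM in ago1D, against 7526, 3621, 1999.8, 2209, 778 and 951 CPM in the libraries labelled dcr1D and 1192 to 4168 CPM in wt (-1.27, SE 0.30, edgeR adjusted p = 0.0452). The call was kept in only 1 of the 12 fits that left out a library, where the median over all calls was 3. At the late times 3 of 25 were called, those for tyrosine, serine and alanine (-1.44, -1.48 and -1.32), the last chosen after its values were seen, where 1.75% of all genes were called lower. The all-times count was 7 of 25 without the ago1D libraries labelled 0, 1 and 2 h, with a median of -0.78, and 3 with scaling by total counts.

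On the high side, dip5, an amino acid transporter gene on chromosome III, had the largest fold change over all times. Its small RNA had 72.3, 60.5, 3.71, 126, 128 and 139 CPM in ago1D, against 2.51, 13.6, 3.64, 23.8, 9.82 and 36.9 CPM in the libraries labelled dcr1D and 0 to 7.20 CPM in wt. The ago1D library labelled 2 h overlapped the other deletion and the other 5 did not (2.84, SE 0.41, edgeR adjusted p = 0.000447). SPCC777.03c, annotated to the cysteine desulfurase family, lies opposite it, with 97.1% of its length over features of the other strand, and had 22.3 to 279 CPM in ago1D and 15.1 to 69.7 CPM in the libraries labelled dcr1D (2.00, SE 0.40, adjusted p = 0.0199). Of 12 tested genes for amino acid and ammonium uptake, dip5 was the only one called over all times, and of 13 at the late times.

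Both genes follow adh1, for alcohol dehydrogenase, on chromosome III, in a stretch whose features were examined after their values were seen. Directly after adh1 comes SPCC13B11.02c, with 856 to 4556 CPM in ago1D, 1335 to 8944 CPM in the libraries labelled dcr1D and 14.6 to 82.8 CPM in wt. It was called in both deletions against wt (5.99 and 6.57) and not between them (-0.58, adjusted p = 0.415). Of the next protein-coding genes, SPCC13B11.03c (3.77) and the formaldehyde dehydrogenase gene fmd3 (2.78) were called at the late times. SPCC777.02 (0.10) between fmd3 and SPCC777.03c and gtr2 (0.51) beyond dip5 were not. adh1 itself had a fold change of -0.06 over all times.

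SPCC737.04, an uncharacterized gene of chromosome III, had 64.5, 77.7, 113, 98.6, 218 and 250.0 CPM in ago1D, against 18.4, 37.5, 10.9, 41.1, 71.0 and 102 CPM in the libraries labelled dcr1D and 0 to 32.4 CPM in wt. It was higher in ago1D at 6 of 6 times (1.67, SE 0.26, edgeR adjusted p = 0.00127) and was called in both deletions against wt (3.73 and 2.06). SPAC4H3.08, annotated as a 3-hydroxyacyl-CoA dehydrogenase, averaged 30.7 ± 12.1 CPM in ago1D and 10.3 ± 7.02 CPM in the libraries labelled dcr1D (SD, n = 6 each; 1.87, adjusted p = 0.0237). The invertase gene inv1, which splits sucrose, was at 36.1 to 139 CPM and 20.4 to 69.7 CPM (1.32, adjusted p = 0.0452). The non-coding RNA SPNCRNA.1005, opposite hca4 over 93.6% of its length, had 69 counts over the ago1D libraries, 22 over those labelled dcr1D and 2 over wt (1.98, adjusted p = 0.0452).

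Further calls on the high side were smaller or less even. The But2 family gene SPAC27D7.11c had a fold change of 1.31, SPAC343.20 of 1.25 and SPCC569.09 of 1.45, each with an edgeR adjusted p of 0.0452. SPCC417.12, annotated as a carboxylesterase, had 77 late counts in ago1D and 5 in the libraries labelled dcr1D, and 2.43 over all times (adjusted p = 0.0490). The RNase P RNA gene rrk1 (0.94), the glycosyl hydrolase gene aah1 (0.88), the tricalbin gene tcb1 (0.92), arz1 (0.99) and the oxidoreductase gene SPCC594.04c (0.93) were all on chromosome III. So were hsp20 (1.18) and the BAX inhibitor gene bxi1 (0.97), which were chosen after their values were seen. Among these, aah1, tcb1, arz1 and SPCC594.04c showed no overlap between the deletions, but the share of all genes without overlap was not counted. Their calls held in 3, 4, 2 and 2 of the 12 fits that left out a library. None of them stayed called with normalisation within each chromosome. At SPCC594.04c the nearest libraries were at 48.21 CPM in ago1D and 48.03 CPM in those labelled dcr1D.

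Heat shock genes were higher in ago1D in a few members. hsp104, which encodes the chaperone that dissolves protein aggregates, had 436, 587, 819.6, 383, 536 and 528 CPM in ago1D, against 438, 317, 389, 191, 162 and 229.6 CPM in the libraries labelled dcr1D and 114 to 359 CPM in wt (0.95, SE 0.21, edgeR adjusted p = 0.0396). The Hsp70 gene ssa1 had 307 to 909.9 CPM, 208 to 549 CPM and 68.0 to 176 CPM in these strains (0.94, SE 0.23, adjusted p = 0.0452). Over all times 2 of 25 genes of the stress list were called, these 2, and at the late times 3, namely hsp104 (1.32), the small heat shock gene hsp16 (1.38) and the catalase gene ctt1 (0.94). Of all genes tested, 0.45% and 1.23% were called higher in these comparisons. None of the list was called lower. Without the clr4D and labelled dcr1D libraries of 10 h, none was called over all times and 1 at the late times. Without the ago1D libraries labelled 0, 1 and 2 h, 4 of 25 were called over all times, and 3 with scaling by total counts. The list's median was 0.39 over all times and 0.10 at the late times.

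Genes for the use of purines, urea, amines and dipeptides, a list made after values had been seen, were called at the late times. Of 15 tested, 9 were higher in ago1D at 4, 10 and 24 h, with a median of 1.25, where 1.23% of all genes were called higher. Over all times none was called, with a median of 1.21, but 6 of 15 were without the ago1D libraries labelled 0, 1 and 2 h, with a median of 0.88, and 2 with scaling by total counts. fah2, for a fatty acid amide hydrolase, had 270.2, 256 and 319.5 CPM in ago1D at those times, against 88.8, 51.3 and 127 CPM in the libraries labelled dcr1D and 222, 148 and 295 CPM in wt (1.79, SE 0.24, edgeR adjusted p = 0.000152). The dipeptide transporter dal51 (2.18), the xanthine dioxygenase xan1 (1.40), the uricase uro1 (1.22), the D-amino acid oxidase dao1 (1.25), the amine oxidase-like cao2 (1.79), the agmatinase SPBC8E4.03 (1.36), the purine nucleoside transporter SPCC285.05 (1.55) and the dipeptide transporter SPCC757.13 (1.68) made up the rest. Of these, xan1, uro1, dao1, SPBC8E4.03 and SPCC757.13 were chosen after their values were seen. Without the clr4D and labelled dcr1D libraries of 10 h, 3 of 15 were called. Called members on chromosome III include fah2, dal51 and SPCC285.05. The late median over all 825 tested genes of that chromosome was 0.33, and 34 of the 57 late calls on the high side lie there. The part of the chromosome in this list's calls was not tested.

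At 0, 1 and 2 h the order of the levels of xan1 differed between the strains. It had 948, 605 and 42.6 CPM in the ago1D libraries labelled 0, 1 and 2 h, against 8.38, 944 and 505 CPM in those labelled dcr1D and 7.78, 1353 and 363 CPM in wt. No gene was called when the late difference was set against the early one (0 of 4220 by edgeR, with 127 at an unadjusted p below 0.05, and 2 by DESeq2). That count was 65 without the ago1D library labelled 0 h. Over 0, 1 and 2 h alone, with no time term, 0 of 3853 genes were called by edgeR, with 106 at an unadjusted p below 0.05.

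Fold changes also differed by chromosome, which was seen after the genes had been tested. Of the 19 genes higher in ago1D, 13 lie on chromosome III, which held 18.1% of the genes tested, and of the 57 higher at the late times, 34. The median fold change over all times was -0.13 over 1940 genes of chromosome I, 0.01 over 1475 genes of chromosome II and 0.33 over 763 genes of chromosome III, where 86.8% of genes were above 0. In blocks of 50 to 52 neighbouring protein-coding genes, all 14 blocks of chromosome III had a positive median (0.25 to 0.40), 34 of 36 blocks of chromosome I a negative one and 14 of 28 blocks of chromosome II a positive one.

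Chromosome III held 19.5%, 20.7%, 21.8%, 21.4%, 21.01% and 22.4% of protein-coding counts in ago1D, against 17.5%, 16.6%, 18.4%, 17.8%, 15.99% and 18.6% in the libraries labelled dcr1D and 17.2% to 19.4% in wt. No ago1D library overlapped the libraries labelled dcr1D. The mean log2 ratio over the 6 pairs was 0.27 ± 0.08 (SD), with an exact two-sided sign-flip permutation p of 0.03125, the smallest that 6 pairs can give, or 0.0469 adjusted over 3 chromosomes. Chromosome I was lower in ago1D in 6 of 6 pairs (47.1% against 51.8% on average, log2 ratio -0.14, adjusted exact p = 0.0469), and chromosome II did not pass (0.05, adjusted exact p = 0.25). These tests were made after the shift had been seen in the same libraries, which the adjustment does not cover. The shares sum to a whole, so those of chromosomes I and III are not separate results. Without every gene called in any of the comparisons, the ratio for chromosome III was 0.22, again in 6 of 6 pairs. Leaving out a pair kept every direction, with ratios of 0.25 to 0.30, but 5 pairs cannot reach the threshold.

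Against wt, which both contrasts share, the median over chromosome III was 0.18 in ago1D and -0.15 in the libraries labelled dcr1D. Over chromosome I it was 0.05 and 0.19, and over chromosome II -0.23 and -0.24. All 14 blocks of chromosome III were positive in ago1D over wt, and 35 of 36 blocks of chromosome I in labelled dcr1D over wt, the exception being the last block. With normalisation within each chromosome, a setting chosen after seeing the data, 27 genes were called over all times (10 higher, 17 lower) and 140 at the late times. Of the 19 genes higher in ago1D, 8 stayed called: dip5, SPCC737.04, ssa1, hsp104, SPAC343.20, SPAC27D7.11c, SPAC4H3.08 and SPNCRNA.1005. Of the 20 lower, 15 stayed called. What sets chromosomes apart in these libraries was not tested.

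**Figure D3:**
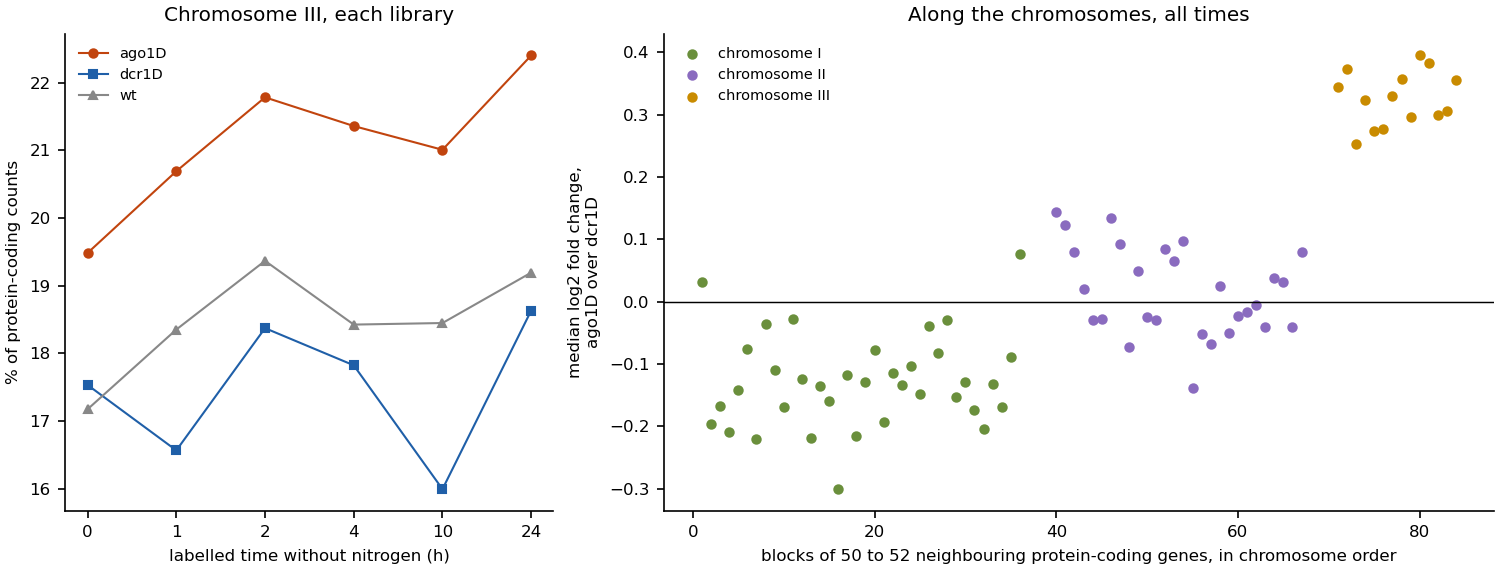
Left, the share of protein-coding counts (%) on chromosome III in each library against labelled time without nitrogen in hours, on an axis that does not start at 0, with circles for ago1D, squares for the libraries labelled dcr1D and triangles for wt. Right, the median log2 fold change of ago1D over the libraries labelled dcr1D in blocks of 50 to 52 neighbouring protein-coding genes, in chromosome order. The ago1D libraries lie between 19.5% and 22.4%, above every library labelled dcr1D, and all 14 blocks of chromosome III lie above 0.

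The genes called between the deletions were set beside wt. They were chosen for their difference, so a gap between the medians below is built in. The 19 genes higher in ago1D than in the libraries labelled dcr1D had a median of 1.42 in ago1D over wt, where 12 were called, and of 0.12 in labelled dcr1D over wt, where 3 were called (SPCC737.04, ssa1 and hsp104). The 20 genes on the low side had medians of -0.49 and 1.36. Of these, 4 were called in ago1D over wt, SPBC530.02, ago1 and SPMITTRNATYR.01 among them, all lower. In labelled dcr1D over wt 9 were called, namely mfm1, mfm2, mfm3, mam2, ght6, shk2, rgs1, ste6 and spk1, all higher. In neither contrast were 7 of the 19 and 7 of the 20 called. Over all genes, 182 of 4220 (4.31%) were called in ago1D over wt, 129 higher (3.06%) and 53 lower (1.26%). In labelled dcr1D over wt 107 were called (2.54%), 79 higher (1.87%) and 28 lower (0.664%). Scaling by total counts gave 130 higher and 22 lower in ago1D, and 34 higher and 20 lower in the libraries labelled dcr1D. Without the ago1D libraries labelled 0, 1 and 2 h, a setting chosen after seeing the data, 333 of 4735 genes were called in ago1D over wt, 215 higher and 118 lower. The contrasts share their wt libraries, so they are set side by side only.

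**Figure D4:**
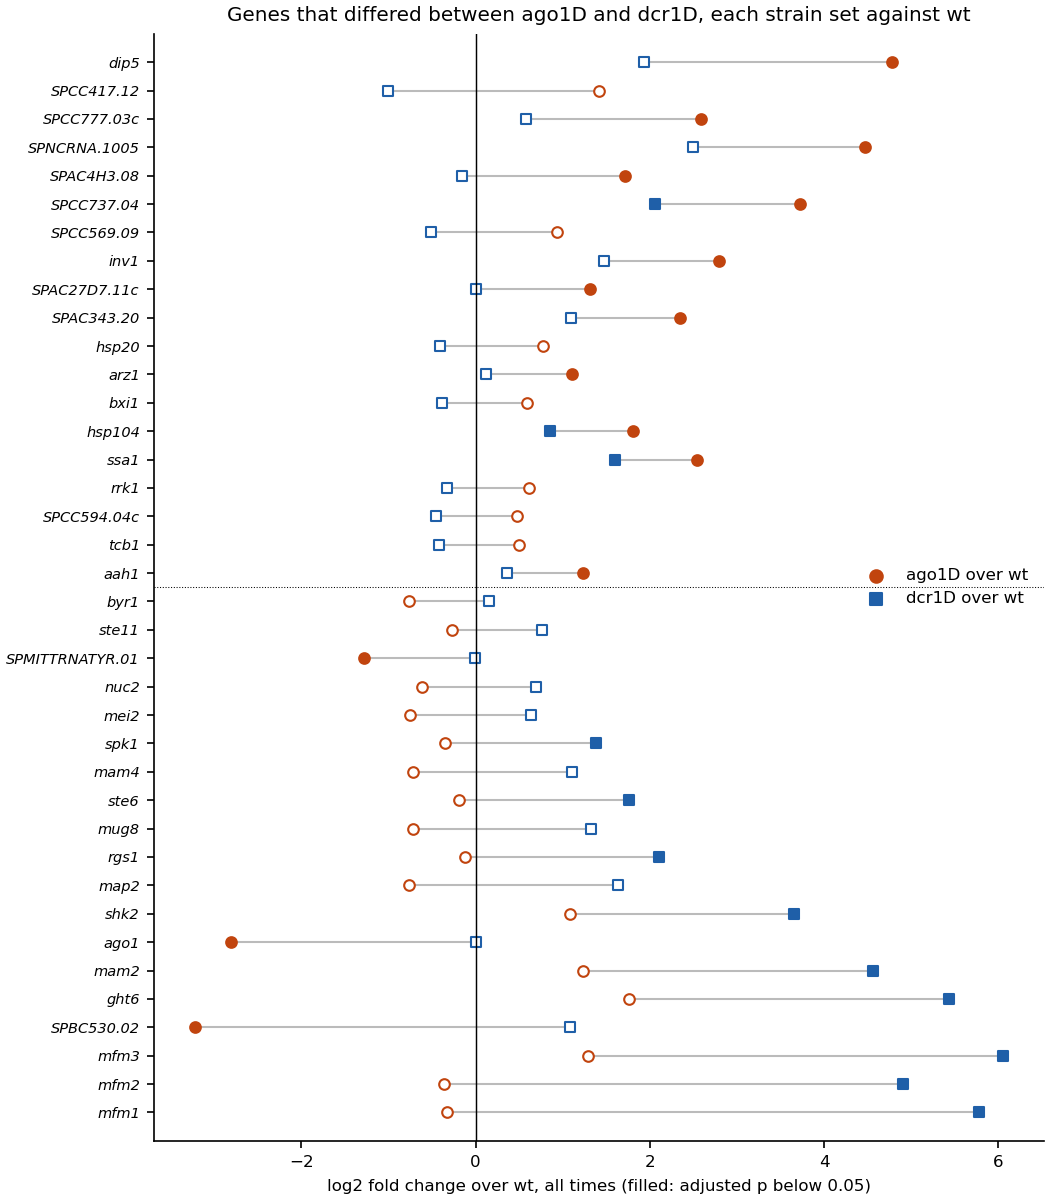
Log2 fold changes over wt, over all times, of 38 of the 39 genes that differed between the deletions, with circles for ago1D and squares for the libraries labelled dcr1D (6 libraries each, the same 6 wt libraries under both). Filled symbols had an edgeR adjusted p below 0.05, and the dotted line divides the 19 genes higher in ago1D (above) from 19 of those lower (below). mfm1, mfm2 and mfm3 lie far right in the libraries labelled dcr1D and near wt in ago1D, while ago1 and SPBC530.02 lie far left in ago1D.

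Among genes of RNA interference and heterochromatin, ago1 was the only call, in lists too short for the share called over all genes (0.924% over all times, 2.97% late) to give many. Of 12 tested members of the RNA interference list, ago1 was the only one called at either set of times, and the other 11 had no call. Of 17 heterochromatin factors tested over all times and 19 at the late times, none was called, with clr4 at -0.03 over all times. None of 12 RNA surveillance genes, 9 and 11 iron uptake genes, 7 zinc and alcohol dehydrogenase genes, 51 and 50 nuclear tRNA genes or 8 other mitochondrial genes was called at either set of times. Without the ago1D libraries labelled 0, 1 and 2 h, 1 of 63 nuclear tRNA genes and 1 of 8 other mitochondrial genes were lower over all times, and 2 of 10 histone and 2 of 8 phosphate genes higher. Among histone genes 1 of 10 was called at the late times, hta1 (1.08), and among phosphate genes 1 of 8, the acid phosphatase gene pho1 (1.04). No Tf2 retrotransposon gene had enough counts to be tested. The median of these lists lay between -0.23 and 0.32 over all times, apart from other mitochondrial genes (-0.42).

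Non-coding RNAs took a larger share of gene counts in ago1D at each time. Their share was 5.20%, 6.59%, 5.98%, 5.69%, 9.27% and 16.5% in ago1D, against 4.53%, 3.36%, 4.54%, 3.75%, 4.77% and 11.3% in the libraries labelled dcr1D and 3.83% to 12.3% in wt. The mean log2 ratio was 0.61 ± 0.31 (SD, 6 of 6 pairs higher), with an exact two-sided sign-flip permutation p of 0.03125, which missed the threshold after adjustment over 6 classes (0.0938). snoRNA, which guides the modification of ribosomal RNA, had 0.206% to 3.65% in ago1D and 0.103% to 2.34% in the libraries labelled dcr1D, with a mean log2 ratio of 1.05 ± 0.80 in 6 of 6 pairs and the same adjusted exact p. The mitochondrial tRNA share averaged 19.4% ± 10.1 in ago1D and 26.8% ± 14.8 in the libraries labelled dcr1D (SD, n = 6 each), lower in 5 of 6 pairs (-0.41, adjusted exact permutation p = 0.125).

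Over all times 2 of 140 single non-coding RNAs were called (0.924% over all genes tested), namely rrk1 and SPNCRNA.1005, both higher in ago1D, and at the late times 7 of 274 were higher and 3 lower, with a median of 0.31 against -0.03 over all genes tested, of which 1.23% were called higher and 1.75% lower. The all-times calls were 5 of 140, all higher, with scaling by total counts, and 7 higher and 3 lower, over more RNAs tested, without the ago1D libraries labelled 0, 1 and 2 h. SPNCRNA.852, which lies wholly opposite rif1, had 113 late counts in ago1D and 6 in the libraries labelled dcr1D, a ratio of dcr1D to ago1D of 0.0468 (95% exact interval 0.0168 to 0.105), and 7 late counts in wt. The 3 lower were meu19, meu3 and omt3, the last chosen after its values were seen, a meiotic RNA with a fold change of -1.42 (adjusted p = 0.00229). Of 9 snoRNA genes none was called at either set of times by edgeR, but 2 were higher over all times with scaling by total counts. Of these genes, snR30, which acts in processing of the ribosomal RNA precursor, had a fold change of 1.01.

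**Figure D5:**
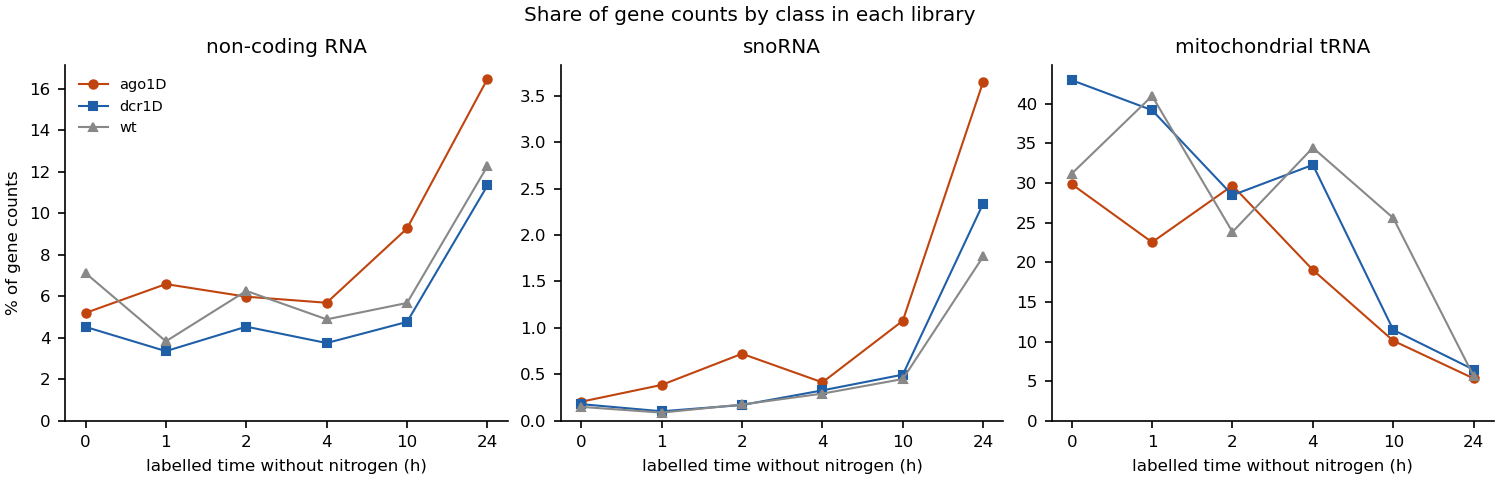
Share of gene counts (%) taken by non-coding RNA, snoRNA and mitochondrial tRNA in each library, against labelled time without nitrogen in hours, with circles for ago1D, squares for the libraries labelled dcr1D and triangles for wt. The ago1D libraries lie above those labelled dcr1D at all 6 times for non-coding RNA and snoRNA, and below them at 5 of 6 times for mitochondrial tRNA.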

How the data were processed

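Small RNA reads were trimmed with cutadapt, aligned to assembly ASM294v2 with Bowtie2 2.1.0 and counted per gene with HTSeq 0.6.1, per the submitters' processing notes. The deposited values are whole-number counts of reads per feature, 6878 features in each of 24 libraries, with unassigned reads in separate lines that stayed out of library sizes and tests. Names, classes, gene order and overlaps between features came from the ASM294v3 annotation, matched to 97.7% of features. No coordinates are given, and no sequences were used.

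Counts were normalised by TMM (factors 0.568 to 1.603) and tested with edgeR 4.0.16 (R 4.3.3) by quasi-likelihood F-test, with strain and labelled time as terms, over all 24 libraries or over the 12 of 4, 10 and 24 h. Genes passed filterByExpr by strain at a minimum count of 10, and p values were adjusted by Benjamini-Hochberg over every gene tested, with calls below 0.05. In any list, a gene with few counts in 1 strain could pass through libraries of another strain where it is high. Libraries were grouped by labelled strain, with time pairing them. CPM values use the TMM-effective library sizes. DESeq2 1.42.0 was an alternative, beside other scaling, filters, spread estimates and left-out libraries. Ratios of pooled counts have exact binomial 95% intervals for counting error only, since the reads carry no molecular identifiers. Shares were compared by exact sign-flip permutation over 6 pairs. On simulated data the fit over all times (4220 genes) recovered 98% of 4-fold and 52% of 2-fold changes, and the late fit (4641 genes) 89% and 30%. False calls were 7 of 157 and 5 of 124. These counts were drawn from the fitted means and the trended spread, with no gene-specific spread and no library apart. Recovery in the real libraries may therefore be lower.

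Members and gene lists were chosen with earlier results of these data known. By the naming rule the text gives the 15 genes of smallest adjusted p in each direction over all times, except 1 not reported here, the 10 at the late times, the targeted genes, up to 4 members of each list, and all M-cell and pericentromeric genes. Other names are said to have been chosen after their values were seen. Remaining late calls are given as counts only.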

Additional observations from a re-analysis of the deposited data

Results flagged for a closer look

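Of 84 groups of 6 libraries examined, 11 held 1 library that stood far from the other 5, where chance alone flags about 1 in 20 groups. Levels here are log2(CPM + 1). The ago1D library labelled 2 h stood low at dip5 (2.24, against 5.94 to 7.13 in the other 5 ago1D libraries) and at SPCC777.03c (4.54, against 7.17 to 8.13). The library labelled dcr1D at 0 h stood low at SPCC777.03c (4.01, against 5.36 to 6.14), and that at 24 h stood high at inv1 (6.14, against 4.42 to 4.91). The ago1D library of 24 h stood high at SPAC343.20 (9.03, against 6.25 to 7.03) and had no count at the deleted ago1 (0, against 2.71 to 4.19). The ago1D library labelled 1 h had none at mfm3 (0, against 2.22 to 3.50).

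The 24 h library stood apart in class shares in both deletions. Non-coding RNA took 16.5% of gene counts in ago1D at 24 h (5.20% to 9.27% at the other times) and 11.3% in the library labelled dcr1D (3.36% to 4.77%). snoRNA took 3.65% in ago1D (0.206% to 1.08%) and 2.34% in the library labelled dcr1D (0.103% to 0.497%). The groups hold 1 library per time, so a library that stands apart and a time that stands apart cannot be told apart.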

How the results depend on the processing

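The 39 calls over all times became 69 with DESeq2, 71 with no filter on low counts, 18 with a robust estimate of the spread, 3 with the ago1D and labelled dcr1D libraries alone, 158 without the ago1D libraries labelled 0, 1 and 2 h, 10 without the clr4D and labelled dcr1D libraries of 10 h, and 8 to 162 without 1 library. They became 0 with the 0, 1 and 2 h libraries alone, a setting chosen after seeing the data, with 106 at an unadjusted p below 0.05. The 138 late calls became 83 with DESeq2, 250 with no filter, 61 with both strains alone, 39 in the fit of all 24 libraries, 38 without both 10 h libraries, and 30 to 177 without 1 library. The late minus early count, 0 by edgeR with 127 at an unadjusted p below 0.05, became 2 with DESeq2, 6 with no filter and 0 to 65 without 1 library. The 107 calls of labelled dcr1D over wt became 54 with scaling by total counts. The 182 calls of ago1D over wt became 333 without the ago1D libraries labelled 0, 1 and 2 h, chosen after seeing the data. Where the spread is estimated from fewer libraries or more genes are tested, calls change by construction, and for the other settings the cause was not tested.

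Labelled time was the block that paired the strains, since labels give it to every library. Without the replicate block the calls were 3 over all times and 15 late, and 0 late minus early (edgeR; unadjusted counts stand above for the main design). Libraries of the same time deviated together in 4 of 6 pairs (r from -0.298 to 0.456 across genes).

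Without 1 pair of libraries, the log2 ratio of the chromosome III share was 0.25 to 0.30 and that of chromosome I -0.16 to -0.12, with adjusted exact permutation p = 0.0938 each, since 5 pairs give no p below 0.0625. Directions of genes not called over all times turned in these settings. With scaling by total counts, dcr1 had 0.040, loz1 0.052, adh1 0.21 and pabp 0.015. With the 0, 1 and 2 h libraries alone, epe1 had -0.011, SPNCRNA.231 0, pho1 -0.12, pho4 -0.00234 and vtc4 -0.00165. SPNCRNA.359 had 0.17 without the ago1D libraries labelled 0, 1 and 2 h, and -1.85 to 0.60 without 1 library, above 0 without the ago1D library of 0 h (0.068) or that labelled dcr1D of 1 h. zym1 had -0.036 without the replicate block, and adh1 -0.19 to 0.14 without 1 library, above 0 without that labelled dcr1D of 24 h. Depth limits what genes under about 10 counts can show, the pericentromeric RNAs among them.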
